A study of Mus musculus with 6 samples.

Results

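Of the 2922 pathway sets scored in each cluster of mouse blood stem cells, 170 had a name holding the word METABOLISM and are described here. They came from 3 public collections of pathways, Reactome (73 sets), WikiPathways (56) and KEGG (41). A fold was given for 169 of them, and the set for nicotine metabolism was 1 of 12 sets in all with no fold in any table. Grouped by their names, the 169 sets held 35 on fatty acids and other lipids, 32 on vitamins and cofactors, 27 on amino acids and amines, 16 on carbohydrates and energy, 13 on metals, porphyrins and redox, 12 on xenobiotics and drugs, 9 on nucleotides, 8 on glycosaminoglycans and glycans, 6 on sterols, steroids and bile acids, 5 on RNA, peptides and surfactant, and 4 on inositol phosphates. The remaining 2 sets were general.

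Haematopoietic stem cells divide rarely in adult marrow and are known for a reliance on glycolysis, with mitochondrial respiration rising when they enter the cell cycle and differentiate. Autophagy supplies recycled amino acids, lipids and nucleotides and clears mitochondria in these cells. A pathway set is a list of genes that a curator placed in 1 pathway. Sets therefore overlap, and a set named for a drug or a hormone often consists of conjugating enzymes such as sulfotransferases and glutathione transferases, which act on many substrates.

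The cells were haematopoietic stem cells that had been sorted out of marrow from Gfp-Lc3 mice, which carry the autophagosome protein LC3 fused to green fluorescent protein. Single-cell RNA sequencing was made of 6 libraries, 1 for each combination of 2 ages (young and old) and 3 feeding states: ad libitum feeding, a 24 hour fast, and a 24 hour fast followed by 24 hours of refeeding. With 1 library a group there were no replicates, and the labels give no age in weeks. The authors' deposited tables set each of 11 clusters of cells, pooled over all libraries, against all other cells. Age and feeding could therefore not be compared, no library could be left out, and the error between animals is unknown.

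Cluster sizes were read back from the deposited statistics of genes seen in a single cell. Clusters 0 to 4 held 4904, 3955, 3910, 3802 and 3747 cells, which was 90.8% of 22378. Clusters 5 to 10 held 1188, 310, 267, 173, 112 and 10 cells. All 12 markers of long-term stem cells on a written list were measured, at a median log2 mean level of 0.72 (range -2.70 to 2.26), where the mean level is counts per cell scaled to 10000. Of 22 markers of mature blood cells and stroma 20 were measured, with a median of -6.33, and the highest was the myeloid lysozyme gene Lyz2 at 1.41. Haemoglobin RNA was present, with Hbb-bs at 0.39 and Hba-a1 at -0.93.

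Every fold below is a log2 ratio of a cluster against all other cells. The value of a set is the fold of the authors' score for that set, and neither the labels nor the headers tell how cells were scored, so set folds and gene folds are not on 1 scale unless a set holds a single gene. A set was counted as higher or lower when the deposited fold reached 0.1 in either direction with a deposited adjusted p-value under 0.05, and a gene when its fold reached 0.5 under the same limit. Those p-values take cells as replicates, so they served only to remove noise. The clusters were themselves made from these cells, and each cluster is part of the rest for every other cluster. The counts below are descriptions and not tests.

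Among the 169 sets, 1 pair repeated the same fold in all 11 clusters. The WikiPathways sets for arylamine metabolism and for tamoxifen metabolism had the same folds and scores within 1e-06, and both equalled the fold of a single gene, Sult1a1. This gene encodes a phenol sulfotransferase, which attaches sulfate to phenols, hormones and drugs, and lies at chr7:126672865-126676432 on the minus strand (GENCODE M21, GRCm38). In the authors' deposited tables the pair and Sult1a1 stood at -0.93, 0.20, 0.39, 0.36, -0.08 and 0.63 in clusters 0 to 5. In clusters 6 to 10 of the authors' deposited tables they stood at -0.24, -0.42, -2.03, 0.28 and 0.15. The pair was thus lowest in clusters 8 and 0 and highest in cluster 5. It carries 1 measurement of 1 gene, not separate evidence for metabolism of arylamines and of tamoxifen.

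Arylamines are acetylated by the N-acetyltransferases, whose genes were measured at lower levels. In the authors' deposited tables Nat2 stood at 0.04 in cluster 0 and -0.30 in cluster 8, at a log2 mean level of -3.30, against 1.20 for Sult1a1. Nat1 was lower in cluster 0 at -0.63 in the authors' deposited tables, at a log2 mean level of -6.45, and thus had the direction of the pair there but not its value. Only 2.42% of genes had a higher mean level than Sult1a1.

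Another set, for metabolism of the mould toxin aflatoxin B1, also equalled 1 gene in every cluster. That gene was Gstm1, a glutathione transferase, at chr3:108012255-108017973 on the minus strand of the same annotation. The authors' deposited tables placed the set and Gstm1 at -0.54, 0.15, 0.30, 0.09, 0.08 and 0.07 in clusters 0 to 5. In clusters 6 to 10 of the authors' deposited tables they stood at 0.01, -0.49, -0.73, 0.53 and 0.35. Gstm1 belongs to a family of similar neighbouring genes, and the assignment of reads among them is uncertain here. Its relative Gstm2 did not share the pattern, at 0.28 in cluster 0 and -0.83 in cluster 2 of the authors' deposited tables.

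**Figure D1:**
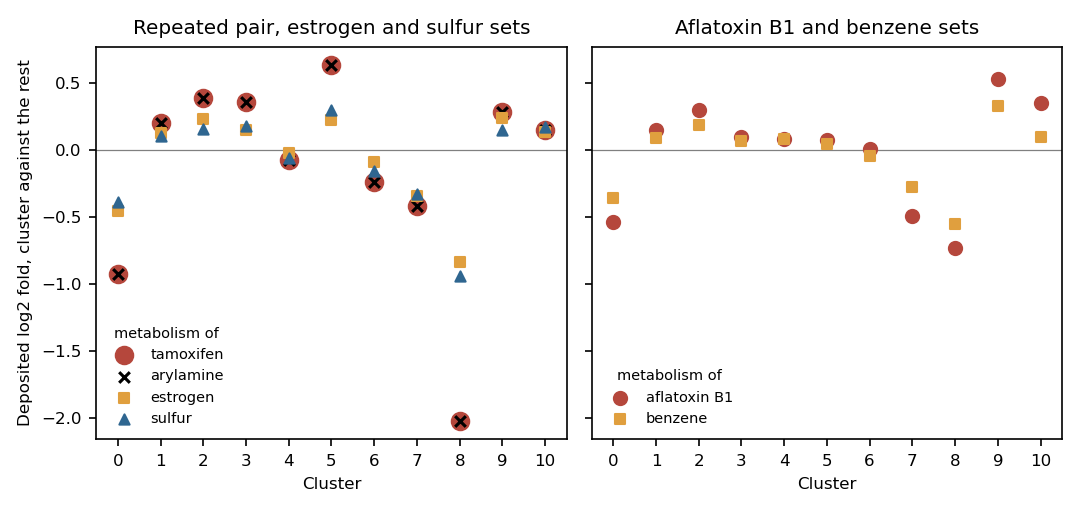
Deposited log2 fold of a cluster against the rest (vertical axis) in clusters 0 to 10 (horizontal axis), 1 point per set and cluster, with no replicates and so no error bars. Left, the crosses of the arylamine set fall on the circles of the tamoxifen set in every cluster, with -2.03 in cluster 8. Right, the aflatoxin B1 set ranges from -0.73 in cluster 8 to 0.53 in cluster 9.

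The sets for estrogen, sulfur and benzene metabolism were also lowest in cluster 8 and next lowest in cluster 0. For estrogen metabolism (WikiPathways) the authors' deposited tables gave -0.46, 0.23, 0.23 and -0.84 in clusters 0, 2, 5 and 8. For sulfur metabolism (KEGG) the authors' deposited tables gave -0.39, 0.16, 0.30 and -0.94 in the same 4 clusters. Benzene metabolism stood at -0.36 in cluster 0, -0.56 in cluster 8 and 0.33 in cluster 9 of the authors' deposited tables. The KEGG and WikiPathways sets for glutathione metabolism stood the other way in cluster 0, each higher at 0.11 in the authors' deposited tables. No source used here lists the genes of these sets, so their share of Sult1a1 and Gstm1 was not tested.

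Most metabolism sets moved little among the 5 large clusters. The range of a set over clusters 0 to 4 had a median of 0.127, against 0.130 for all sets, and 55 sets ranged over less than 0.1. Only 10 sets ranged over 0.5 or more, and 123 sets passed the rule in none of these clusters. The narrowest were the Reactome set for metabolism of porphyrins, at 0.018, and the WikiPathways set for iron metabolism in placenta, at 0.030. Cluster 0 was the highest of the 5 for 90 sets and cluster 1 for 6. Cluster 1 was the lowest for 60 and cluster 3 for 6. This ranking was not made over all sets. Over all sets, 63.8% stood above 0 in cluster 0 and 19.9% in cluster 1, against 72.8% and 19.5% of metabolism sets.

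**Figure D2:**
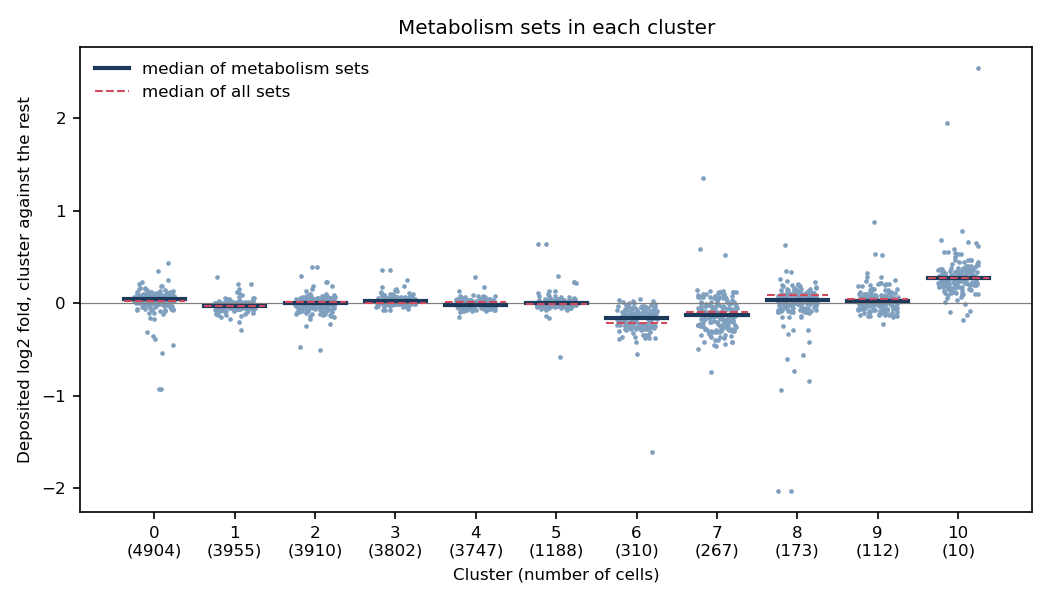
Deposited log2 fold (vertical axis) of the metabolism sets in each cluster, with cell numbers under the cluster (horizontal axis). Each point is 1 set, solid lines are their medians and dashed lines the medians of all sets. The medians stay close to 0 in clusters 0 to 5, where single sets reach -0.93 and 0.63, and lie at -0.165 in cluster 6 and 0.269 in cluster 10.

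In cluster 0, 30 metabolism sets were higher (17.8%, background 10.9%) and 10 were lower (5.92%, background 6.74%). In cluster 1, 5 were higher (background 0.825%) and 9 lower (background 7.63%). In cluster 2, 8 were higher (background 8.91%) and 15 lower (8.88%, background 4.71%). In cluster 3, 12 were higher (7.10%, background 2.61%) and 0 lower (background 2.82%). In cluster 4 the single higher set was KEGG nitrogen metabolism (background 4.92%), and 0 were lower (background 1.17%). In cluster 5, 7 were higher (background 1.45%) and 0 lower (background 0.654%). The share of higher metabolism sets was above that of all sets in clusters 0, 1, 3 and 5 and below it in clusters 2 and 4. Without the 3 sets that carry 1 gene, cluster 1 had 2 higher sets and cluster 2 had 5.

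Among the 5 smallest clusters, cluster 6 was the one with the most lower sets. There 0 metabolism sets were higher (background 0.0689%) and 116 lower (68.6%, background 77.1%). In cluster 7, 3 were higher (background 5.76%) and 89 lower (52.7%, background 45.4%). In cluster 8, 30 were higher (17.8%, background 38.2%) and 14 lower (8.28%, background 4.69%). In cluster 9, where 168 sets had a fold, 16 were higher (9.52%, background 20.8%) and 2 lower (background 0.796%). In cluster 10, which held 10 cells, 99 were higher (58.6%, background 64.2%) and 0 lower (background 0.0347%). The share of higher metabolism sets was below that of all sets in each of clusters 6 to 10. The share of lower ones was below it in clusters 6 and 10 and above it in clusters 7, 8 and 9.

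**Figure D3:**
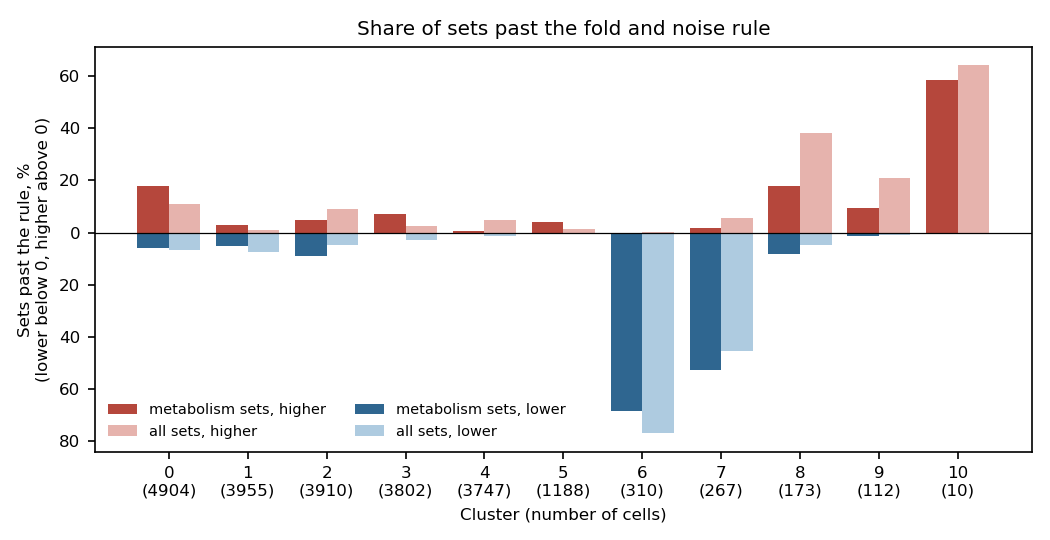
Percent of sets past the rule (vertical axis, higher above 0 and lower below 0) in each cluster (horizontal axis, cell numbers beneath), for metabolism sets in dark and all sets in light colours. In cluster 8, 17.8% of metabolism sets were higher against 38.2% of all sets, and in cluster 0 17.8% against 10.9%.

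Genes were read from 16 lists of metabolic enzymes, of which 470 of 491 genes were in the tables. In cluster 0, 6 list genes were higher (background 2.42%) and 21 lower (background 6.2%). Cluster 1 had 1 higher (background 0.125%) and 4 lower (background 1.59%), and cluster 2 had 10 higher (background 3.06%) and 12 lower (background 2.7%). Cluster 3 had 2 higher (background 0.713%) and 5 lower (background 1.39%), cluster 4 had 0 higher (background 0.391%) and 2 lower (background 0.835%), and cluster 5 had 2 higher (background 0.143%) and 1 lower (background 0.94%). With 462 to 469 list genes given a fold in these clusters, such counts are at most 4.49% of the list.

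The sugar sets of widest range were highest in cluster 0 and lowest in cluster 2 of the 5 large clusters, but other sugar sets were not. Pentose phosphate metabolism, which supplies NADPH and ribose, stood at 0.25, -0.04, -0.22, 0.03 and -0.07 in clusters 0 to 4 of the authors' deposited tables. The transaldolase gene Taldo1 of this pathway stood at 0.41 in cluster 0 and -0.52 in cluster 2 of the authors' deposited tables, and the transketolase gene Tkt at 0.40 and -0.25. Fructose metabolism (Reactome) stood at 0.16 in cluster 0 and -0.24 in cluster 2 of the authors' deposited tables. Reactome's broad glucose set moved less, at 0.07 and -0.05 in the authors' deposited tables. Starch and sucrose (KEGG) stood at 0.004 and 0.043, and glycogen (Reactome) at 0.002 and 0.034, in the authors' deposited tables. Both were highest in cluster 2 of the 5 large clusters. Pygm, from the same gene list as Taldo1, passed the rule the other way, at -0.73 in cluster 0 and 0.58 in cluster 2 of the authors' deposited tables. Of the 16 carbohydrate and energy sets, 3 were higher in cluster 0 (background 10.9%) and 3 lower in cluster 2 (background 4.71%). Of all metabolism sets, 17.8% were higher in cluster 0 and 8.88% lower in cluster 2.

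Pdk4 encodes a kinase that inhibits pyruvate dehydrogenase. It was lower in cluster 0 at -1.03 and higher in cluster 2 at 1.21 in the authors' deposited tables. It is a rare transcript, at a log2 mean level of -6.86. In the list of 27 glycolysis and pyruvate genes it was the only gene past the rule in either cluster. The abundant Ldha and Gapdh stood at 0.14 and 0.19 in cluster 0 and at -0.18 and -0.21 in cluster 2 of the authors' deposited tables.

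Long-term stem cell markers moved beside these folds. In cluster 0, 5 of the 12 markers were lower (background 6.2%), with a median of -0.44. In cluster 2, 4 were higher (background 3.06%), with a median of 0.38. Of the 20 markers of mature cells, 3 were higher in cluster 0 (background 2.42%), namely Nkg7, Pf4 and Ppbp. Of these 20, 1 was lower there (background 6.2%). In cluster 2, 0 were higher (background 3.06%) and 2 were lower (background 2.7%). The part of either marker list in the metabolic folds was not tested.

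Amino acid metabolism held the most sets past the rule in cluster 0, with 10 of 27 higher (background 10.9%) and 0 lower (background 6.74%). Its class median was 0.093 against 0.019 for all sets. In cluster 2, 5 of the 27 were lower (background 4.71%). Glycine, serine and threonine metabolism (KEGG) stood at 0.23, -0.10, -0.14, 0.07 and -0.09 in clusters 0 to 4 of the authors' deposited tables. Phgdh, the enzyme that commits a glycolytic intermediate to serine, stood at 0.56, -0.21, -0.35, 0.09 and -0.21 in the authors' deposited tables and passed the rule in cluster 0. Alanine and aspartate metabolism stood at 0.20 in cluster 0 and -0.12 in cluster 2 of the authors' deposited tables. The widest set of the class, Reactome's amine-derived hormones, stood at 0.35, -0.21, -0.51, -0.03 and 0.17 in the authors' deposited tables. The deiodinase gene Dio2 stood at 0.38, -0.23, -0.54, -0.05 and 0.21 in these clusters of the authors' deposited tables. Its log2 mean level was -4.63, and its part in that set was not tested.

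The one-carbon sets, which use serine to charge folate for nucleotide synthesis and methylation, were placed in a like way. Folate and pterine metabolism stood at 0.18, -0.14, -0.13, 0.11 and -0.07 in clusters 0 to 4 of the authors' deposited tables. For transsulfuration and one-carbon metabolism the authors' deposited tables gave 0.19, -0.10, -0.12, 0.03 and -0.02. Of 26 folate and one-carbon genes in the tables, 2 were higher in cluster 0 (background 2.42%). They were Phgdh, given above, and the transsulfuration gene Cbs at 1.07 in the authors' deposited tables. Cbs is a rare transcript, at a log2 mean level of -8.79. In cluster 2 none of the 26 passed the rule, and their median was -0.11.

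**Figure D4:**
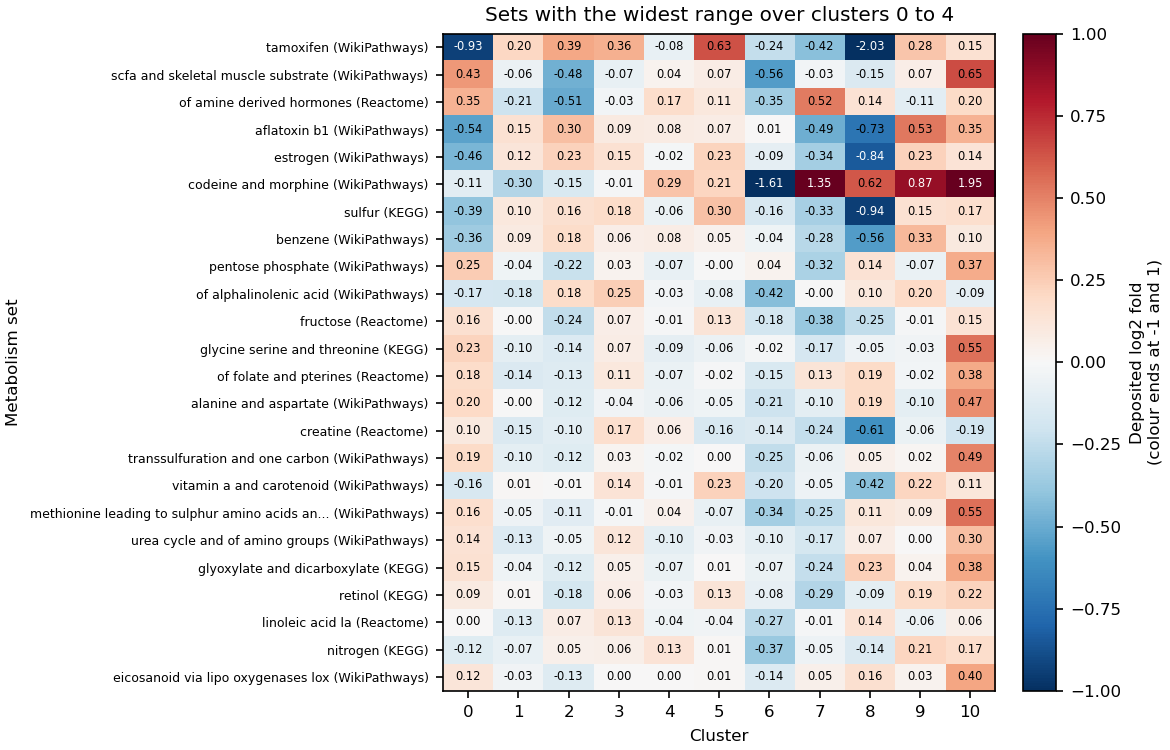
Deposited log2 fold, as colour and number, of the 24 metabolism sets with the widest range over clusters 0 to 4 (rows, the repeated pair shown once) in each cluster (columns). Colour ends at -1 and 1, and values beyond it include -2.03 for tamoxifen metabolism in cluster 8 and 1.95 for codeine and morphine metabolism in cluster 10, which did not pass the rule.

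Nucleotide sets hardly separated the large clusters. Reactome's broad set for metabolism of nucleotides stood at 0.08, -0.03, -0.05, 0.06 and -0.04 in clusters 0 to 4 of the authors' deposited tables. Of the 9 nucleotide sets 1 passed the rule in these clusters, WikiPathways pyrimidine metabolism, at 0.11 in cluster 0 of the authors' deposited tables. The xanthine dehydrogenase gene Xdh, which ends purine breakdown, stood at -1.22 in cluster 0 and 0.84 in cluster 2 of the authors' deposited tables.

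Of the 35 lipid sets 6 were higher in cluster 0 (background 10.9%), near the share of all metabolism sets, and the largest fold was that of the WikiPathways set for short-chain fatty acids and muscle substrates. It stood at 0.43, -0.06, -0.48, -0.07 and 0.04 in clusters 0 to 4 of the authors' deposited tables. Reactome's broad lipid set stood at 0.03 in cluster 0 and -0.20 in cluster 6 of the authors' deposited tables. The set for alpha-linolenic acid, a plant omega fatty acid, had another order, at -0.17, -0.18, 0.18, 0.25 and -0.03 in clusters 0 to 4 of the authors' deposited tables. Eicosanoids are signalling lipids made from arachidonic acid, and their lipoxygenase set stood at 0.12 in cluster 0 and -0.13 in cluster 2 of the authors' deposited tables.

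Leukotriene enzymes differed in the same clusters. Ltc4s, the leukotriene C4 synthase, stood at 1.02, 0.08, -1.11, -0.41 and -0.35 in clusters 0 to 4 of the authors' deposited tables. Ggt5, which trims leukotriene C4 to D4, stood at 1.15, 0.00, -0.98, -0.55 and -0.33 in the authors' deposited tables. Both were highest in cluster 0 and lowest in cluster 2 of the 5, at low log2 mean levels of -4.20 and -3.30. Of the 17 eicosanoid genes, 2 were higher (background 2.42%) and 2 lower (background 6.2%) in cluster 0, so the list had no single direction there. The higher genes were Ltc4s and Ptgr1, the latter at 0.79 in the authors' deposited tables, while Ggt5 was on the glutathione and redox list. The lower genes were Ptges at -0.90 and Ptgs2 at -0.63 in the authors' deposited tables.

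Of the 30 vitamin and retinoid genes in the tables, 0 were higher (background 2.42%) and 2 lower (background 6.2%) in cluster 0. In cluster 2, 1 was higher (background 3.06%) and 2 lower (background 2.7%). These counts are too small to set the list apart from all genes. Cyp26b1, which breaks down retinoic acid, stood at -1.42 in cluster 0 and 0.76 in cluster 2 of the authors' deposited tables. Rdh10, which makes the retinal that precedes retinoic acid, was the other lower gene in cluster 0, at -0.65 in the authors' deposited tables. Aldh1a1, which makes retinoic acid, was lower in cluster 2 at -0.76 and stood at 0.34, short of the rule, in cluster 0 of the authors' deposited tables. KEGG retinol metabolism stood at 0.09 and -0.18 and the WikiPathways set for vitamin A and carotenoids at -0.16 and -0.01 in the authors' deposited tables, so sets of nearly the same name differed in sign in cluster 0. In cluster 5 the vitamin A set was higher at 0.23 in the authors' deposited tables, beside Cyp26b1 at 0.58.

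Cluster 3 was higher for 12 sets, led by the repeated pair at 0.36, with alpha-linolenic acid metabolism at 0.25, sulfur at 0.18, creatine at 0.17 and estrogen at 0.15 in the authors' deposited tables. Srm, the spermidine synthase of the polyamine pathway, stood at 0.45, -0.50, -0.28, 0.51 and -0.50 in clusters 0 to 4 of the authors' deposited tables. It passed the rule as higher in cluster 3. In cluster 4, KEGG nitrogen metabolism stood at 0.13 in the authors' deposited tables.

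Inositol phosphate and glycosaminoglycan sets stood apart from the other classes in cluster 7. Their class medians were 0.051 and 0.060, which was 0.15 and 0.16 above the median of all sets, while nucleotide sets lay 0.20 and xenobiotic sets 0.24 below it, with class medians of -0.30 and -0.34. All 3 sets higher in cluster 7 were of membrane lipids: the authors' deposited tables gave 0.14 for phosphoinositides and 0.12 for each of the 2 WikiPathways sphingolipid sets. Of 40 inositol phosphate and phosphoinositide genes, 5 were higher (background 2.19%) and 3 lower (background 11.3%) in cluster 7. Among the higher genes, Mtm1 stood at 0.90 and Pik3ca at 0.60 in the authors' deposited tables. These encode a phosphoinositide phosphatase and a catalytic subunit of phosphoinositide 3-kinase. Among the lower genes, Itpka stood at -2.01 and Mtmr4 at -1.38 in the authors' deposited tables. Both folds were larger in size than those of Mtm1 and Pik3ca, so the list had no single direction.

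**Figure D5:**
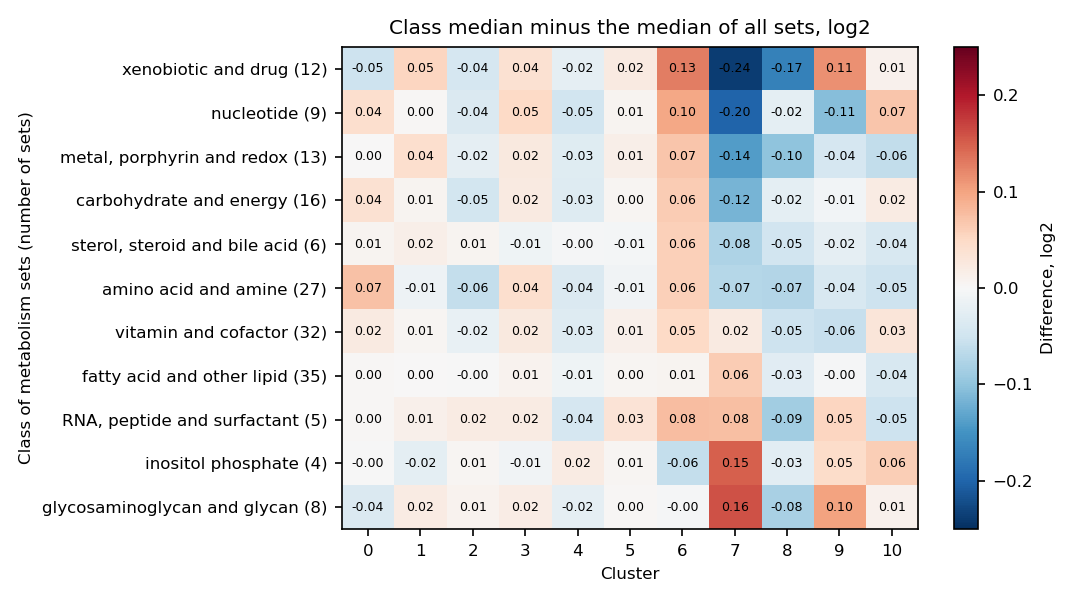
Median deposited log2 fold of each class of metabolism sets minus the median of all sets (colour and number), by class (rows, number of sets in brackets) and cluster (columns). The 2 general sets are left out. In cluster 7 the differences run from -0.24 for xenobiotic and drug sets to 0.16 for glycosaminoglycan sets.

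Sets lower in cluster 7 were led by Reactome selenoamino acid metabolism at -0.74, aflatoxin B1 at -0.49, polyamines at -0.46, benzo(a)pyrene at -0.46 and WikiPathways purine metabolism at -0.44 in the authors' deposited tables. Reactome's broad amino acid set stood at -0.42 in the authors' deposited tables. Reactome files ribosomal proteins under selenoamino acids and proteasome subunits under polyamines. In this cluster 78 cytoplasmic ribosomal protein genes had a median of -0.92, 38 proteasome subunit genes a median of -0.53, and 13 mitochondrially encoded genes a median of 1.17. The part of these genes in the set folds was not tested.

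Single enzymes were lower in cluster 7 as well, with 60 of 440 list genes lower (background 11.3%) and 15 higher (background 2.19%). The glycolytic gene Gapdh stood at -0.78, the peroxide-removing Gpx1 at -0.80, the nucleoside diphosphate kinase gene Nme2 at -1.02 and the ferritin light chain gene Ftl1 at -0.75 in the authors' deposited tables. Of 18 glutathione and redox genes 5 were lower and 0 higher. Of 23 citric acid cycle genes 4 were lower and 0 higher, including the succinate dehydrogenase genes Sdhb at -0.90 and Sdhd at -0.74 in the authors' deposited tables.

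In cluster 6 every class held lower sets (background 77.1%). Above that share were inositol phosphates with 4 of 4, lipids with 32 of 35 and glycosaminoglycans with 7 of 8 sets lower. Below it were the other classes, such as amino acids with 17 of 27, vitamins with 22 of 32 and xenobiotics with 5 of 12. The median of metabolism sets was -0.165, against -0.210 for all sets. Of 447 list genes 54 were lower (background 14.3%) and 0 higher (background 0.0551%). The 10 lower phosphoinositide genes included Pik3ca at -0.77 and Mtm1 at -0.71 in the authors' deposited tables, where cluster 7 had them higher. Cpt1a, which admits fatty acids to mitochondria, stood at -0.72 in the authors' deposited tables. The 13 mitochondrially encoded genes had a median of -0.74 here, and haemoglobin Hbb-bs was the single marker of mature cells past the rule, at 1.99 in the authors' deposited tables. Their part in the set folds was not tested.

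In cluster 8 the pair led by Sult1a1 was lowest at -2.03, followed by sulfur at -0.94, estrogen at -0.84 and aflatoxin B1 at -0.73 in the authors' deposited tables. The highest among the sets past the rule was the Reactome set for conversion of ingested selenium compounds, at 0.35 in the authors' deposited tables. Next was Reactome's set for control of glycolysis by fructose 2,6-bisphosphate, at 0.33 in the authors' deposited tables. Polyamines stood at 0.26 in the authors' deposited tables, beside a median of 0.34 over the 38 proteasome genes. Of 439 list genes 12 were higher (background 2.86%) and 22 lower (background 4.18%). The glycolytic genes Aldoc and Hk2 stood at -1.84 and -0.82, and the mevalonate enzymes Mvd and Mvk at -1.33 and -1.04, in the authors' deposited tables. Of 26 glycolysis and pyruvate genes with a fold, 3 were lower (background 4.18%) and 1 higher (background 2.86%). The higher gene was Mpc1, at 0.56 in the authors' deposited tables. The median of that list was 0.146, against 0.128 for all genes, so the list as a whole was not lower. Ptgr1, which inactivates prostaglandins and leukotrienes, was higher at 2.18 in the authors' deposited tables. Its log2 mean level was -4.86.

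In cluster 9, aflatoxin B1 metabolism was highest among the sets past the rule at 0.53, with benzene at 0.33, in the authors' deposited tables. The lower sets were KEGG nicotinate and nicotinamide metabolism at -0.23 and WikiPathways purine metabolism at -0.14 in the authors' deposited tables. Reactome's nicotinate set, of nearly the same name, stood at 0.02 in the authors' deposited tables and did not pass the rule. Glycosaminoglycan sets had 5 of 8 higher (background 20.8%) and a class median of 0.143, against 0.043 for all sets. Of 435 list genes 8 were higher (background 1.49%) and 6 lower (background 2.08%). The hexokinase gene Hk2 stood at 1.31 and the glutathione transferase gene Gstp1 at 0.83 in the authors' deposited tables, while Gstm5 stood at -0.81.

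In cluster 10 all 9 nucleotide sets were higher (background 64.2%). The WikiPathways sets for pyrimidine metabolism and related diseases and for biomarkers of pyrimidine disorders stood at 0.77 and 0.68 in the authors' deposited tables. Of 418 list genes 8 were higher (background 2.51%) and 0 lower (background 0.222%). They included Umps, which completes uridine monophosphate, at 1.40 and the serine synthesis gene Psat1 at 1.73 in the authors' deposited tables. Since the median of all sets was 0.273 in this cluster and that of metabolism sets 0.269, metabolism sets were placed like sets in general. The cluster holds 10 cells, which limits the precision of each value.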

How the data were processed

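Haematopoietic stem cells of 6 libraries were profiled by 10x single-cell RNA sequencing, and Scanpy and mm10 are named in the submitters' processing notes. The authors deposited 22 tables, for genes and for pathway sets of 11 clusters, each with a log2 fold, a p-value and an adjusted p-value of 1 cluster against all other cells. The pathway tables add a score and the gene tables a log mean level. The deposited score, a column of its own per the file headers, served only in the search for repeats. No source used here names the aligner, the clustering settings, the scoring of sets or the set members, or tells how doublets were treated. Counts per library were not analysed here.

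The rule on set names, the counts, the medians and the search for repeated folds and scores (tolerance 1e-06; 0.001 against genes) were run in Python 3.11.15 with pandas 2.3.3 and tested on simulated data. The deposited adjusted p-values equal Benjamini-Hochberg values within 2.53e-15. Folds beyond 10 in size, where a side has no count, were left out. Sets named are up to 5 per end and cluster, chosen sets of broad scope, and sets that repeat a fold. Genes named are up to 4 per list and cluster past the rule, and genes tied to a set. Other genes named (Gstm2, Nat2, Tkt, Taldo1, Ldha, Gapdh) and sets beyond this rule were chosen after their values were seen. The sets, the 16 gene lists and the classes were chosen with earlier results of these data known. Coordinates are from GENCODE M21. Alternatives were other fold limits, either limit alone, centring on all sets, a wider name rule, and leaving out repeats or lowly expressed genes. Some genes that the naming rule covers are not reported here.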

Additional observations from a re-analysis of the deposited data

How the results depend on the processing

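The pair with repeated folds and the 3 sets that carry 1 gene were the same count at 2 decimals, within 0.01 and without cluster 10. Taking 1 set of the pair moved no count or median of sets past its limit, and names with METABOLIC too (180 sets), run for the medians alone, moved none of the 11. Counts of higher and lower sets did move with the rule, given here for clusters 0 to 10 in order. The share over all sets or all genes was worked out for the main rule alone. Whether a difference from that share holds under another rule was therefore not tested. With the adjusted p-value alone 106, 18, 49, 80, 24, 15, 0, 3, 51, 22 and 100 sets were higher and 32, 91, 71, 11, 72, 8, 128, 96, 20, 8 and 0 lower. With the fold alone 30, 6, 9, 12, 3, 9, 0, 13, 40, 32 and 157 were higher and 12, 11, 16, 0, 1, 3, 126, 95, 17, 14 and 2 lower. At a fold of 0.05, 73, 10, 31, 34, 8, 12, 0, 3, 48, 22 and 100 were higher and 21, 40, 38, 3, 19, 0, 128, 96, 19, 6 and 0 lower. At 0.2, 5, 2, 4, 3, 0, 5, 0, 0, 6, 6 and 89 were higher and 6, 0, 4, 0, 0, 0, 63, 59, 12, 1 and 0 lower. Centred on the median of all sets, 17, 7, 8, 12, 1, 8, 16, 3, 9, 12 and 23 were higher and 12, 4, 19, 0, 2, 0, 14, 59, 20, 6 and 5 lower. That centring turned the median of metabolism sets from -0.027 to 0.00643 in cluster 1, from -0.165 to 0.045 in cluster 6, from 0.037 to -0.049 in cluster 8, from 0.024 to -0.019 in cluster 9 and from 0.269 to -0.00368 in cluster 10. In cluster 7 it moved from -0.127 to -0.028. Without the sets that carry 1 gene, 2 sets in cluster 1 and 5 in cluster 2 were higher, an alternative chosen after seeing the data. At a gene fold of 0.25, 62, 3, 30, 22, 3, 5, 0, 22, 27, 11 and 12 list genes were higher and 35, 23, 37, 12, 6, 2, 93, 87, 31, 9 and 0 lower. Among genes at or above the median level, 2, 0, 5, 1, 0, 2, 0, 15, 9, 8 and 8 were higher and 9, 0, 6, 1, 0, 0, 49, 51, 16, 4 and 0 lower. No paired analysis was possible because the deposited tables pool the libraries. For the same reason no library was left out, and what depth limits was not tested.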

Other observations

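Over all names, 26 of 2910 sets (0.893%) carried the value of 1 gene in every cluster, the 3 metabolism sets included, and 25 genes stood behind them. For 19 of the 23 sets outside the metabolism names, that gene had a log2 mean level under -5. Several are metabolic by content. In the authors' deposited tables the Reactome set for fatty acids equals Cyp4b1, the thyroxine biosynthesis set equals the deiodinase gene Dio2, and the WikiPathways set for flavin monooxygenases equals Fmo5. In all, 6 pairs of sets repeated a fold, among them the KEGG and WikiPathways sets for pathogenic Escherichia coli infection.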
